A study of Mus musculus with 8 samples.

Results

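Occupancy of the chromatin remodelers Chd7 and Chd8 was examined at 32 genes of the p53 pathway and of apoptosis, out of 21883 protein-coding genes placed on the mouse genome (mm10). The 32 genes were chosen by name, for their known roles, with earlier results of these data known. Each was read for peaks at its ends (within 1 kb of either gene boundary), in its body and in 10 kb on both sides. Peaks at the end of a neighbouring gene were kept apart. The data were chromatin immunoprecipitation followed by sequencing (ChIP-seq) of O4+ cells, which the labels call OPCs (oligodendrocyte precursor cells), isolated with magnetic beads from cortex and corpus callosum of wild-type mice at postnatal day 7. The 8 libraries, all untreated and of the same genotype and age, were Chd7 ChIP (2 libraries), Chd8 ChIP (1 library), mock ChIP made with rabbit IgG (2 libraries) and input (3 libraries). One mock serves as the control of Chd8 and of the second Chd7 replicate. The series title names precursor differentiation and survival as processes that require both remodelers, and the lists of peaks address where the remodelers sat, with no mutant among these libraries.

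p53, encoded by Trp53, is a transcription factor that is kept low by the inhibitors Mdm2 and Mdm4 and that, once stabilised by DNA damage or other stress, switches on genes of cell cycle arrest, DNA repair and cell death. Its death targets act largely through the BCL-2 family: BH3-only proteins such as Bbc3 (PUMA), Pmaip1 (NOXA) and Bcl2l11 (BIM) relieve the block that Bcl2, Bcl2l1 (BCL-XL) and Mcl1 place on the pore formers Bax and Bak1, and released cytochrome c then assembles Apaf1 and Casp9 into the apoptosome. Chd7 and Chd8 are ATP-dependent remodelers that slide nucleosomes, CHD7 is the human gene mutated in CHARGE syndrome, and both have been linked to restraint of p53 in other mouse cells.

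Peaks at the 32 loci were sorted by whether they lay at an end or start site of the member. Those that did were 9 of 12 in Chd7 replicate 1, 15 of 22 in Chd7 replicate 2 and 31 of 42 in Chd8. The same share over the loci of all genes was not counted, so these counts stand without a background. The range is shown by 5 promoter windows. Bcl2l11 was the single member whose end both Chd7 lists covered with overlapping peaks. At an internal start of Mdm4 the 2 Chd7 peaks lay side by side. The internal start of Sesn1 held the highest Chd7 replicate 1 fold (the height of a peak over its background) at a member's start site. The windows of Trp53 and Cdkn1a held no base of a Chd7 peak, though Chd7 replicate 1 had peaks within 1 kb of the Trp53 start. Each window runs from 250 bases before to 50 bases after a start site, 5′ to 3′ on the gene's strand, and was taken from RefSeq annotation of mm10 (GRCm38.p6). Capitals mark bases inside a peak of either Chd7 list. The windows are chr2:128125788-128126087 (plus strand) for Bcl2l11, chr1:133025367-133025666 (minus strand) for Mdm4, chr10:41887189-41887488 (plus strand) for Sesn1, chr11:69580109-69580408 (plus strand) for Trp53 and chr17:29090729-29091028 (plus strand) for Cdkn1a.
Bcl2l11: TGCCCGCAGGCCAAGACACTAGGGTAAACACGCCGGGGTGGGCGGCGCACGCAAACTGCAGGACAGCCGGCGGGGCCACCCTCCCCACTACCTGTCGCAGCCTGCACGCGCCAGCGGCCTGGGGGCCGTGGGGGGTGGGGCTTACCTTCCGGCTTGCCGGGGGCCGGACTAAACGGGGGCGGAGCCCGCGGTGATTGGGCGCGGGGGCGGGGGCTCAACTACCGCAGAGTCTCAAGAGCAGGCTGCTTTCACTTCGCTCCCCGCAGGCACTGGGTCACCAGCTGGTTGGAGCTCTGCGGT
Mdm4: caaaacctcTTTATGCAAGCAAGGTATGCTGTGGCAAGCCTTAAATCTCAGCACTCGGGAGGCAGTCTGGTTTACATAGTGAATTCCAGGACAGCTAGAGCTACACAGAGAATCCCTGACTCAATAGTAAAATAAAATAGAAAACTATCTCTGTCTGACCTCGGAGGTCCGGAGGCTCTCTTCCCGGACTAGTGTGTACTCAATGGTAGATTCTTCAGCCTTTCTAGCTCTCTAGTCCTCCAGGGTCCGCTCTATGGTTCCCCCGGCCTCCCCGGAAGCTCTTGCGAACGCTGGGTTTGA
Sesn1: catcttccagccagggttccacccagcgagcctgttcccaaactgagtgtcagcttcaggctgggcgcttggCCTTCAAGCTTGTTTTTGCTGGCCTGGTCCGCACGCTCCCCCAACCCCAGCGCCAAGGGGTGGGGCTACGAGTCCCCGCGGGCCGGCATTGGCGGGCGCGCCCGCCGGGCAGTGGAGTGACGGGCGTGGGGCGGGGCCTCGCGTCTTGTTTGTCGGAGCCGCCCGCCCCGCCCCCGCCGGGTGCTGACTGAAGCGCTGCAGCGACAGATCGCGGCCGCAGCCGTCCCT
Trp53: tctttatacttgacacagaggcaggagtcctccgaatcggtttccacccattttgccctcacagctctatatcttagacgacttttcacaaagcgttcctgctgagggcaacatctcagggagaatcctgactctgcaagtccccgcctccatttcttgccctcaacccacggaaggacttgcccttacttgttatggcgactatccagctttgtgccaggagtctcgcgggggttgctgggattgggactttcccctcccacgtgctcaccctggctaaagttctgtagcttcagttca
Cdkn1a: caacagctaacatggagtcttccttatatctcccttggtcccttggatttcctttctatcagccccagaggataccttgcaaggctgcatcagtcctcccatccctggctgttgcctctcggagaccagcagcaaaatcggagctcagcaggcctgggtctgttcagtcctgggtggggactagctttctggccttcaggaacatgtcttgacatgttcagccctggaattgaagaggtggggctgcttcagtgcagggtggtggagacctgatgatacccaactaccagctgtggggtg

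In the Bcl2l11 window all 300 bases lay in a Chd7 peak, against 291 for Mdm4, 228 for Sesn1 and 0 for both Trp53 and Cdkn1a. The windows of Bcl2l11 and Sesn1 were rich in CG pairs, with 27 and 31. Those of Mdm4, Trp53 and Cdkn1a held 9, 10 and 2. Among the windows with a Chd7 peak, 2 were thus rich and 1 was poor in CG pairs.

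The ChIP lists ran to 5282 peaks (Chd7 replicate 1), 6292 (Chd7 replicate 2) and 18415 (Chd8), against 89 and 98 for the mocks and 91628 to 178478 for the inputs. The inputs, made without antibody, thus had more peaks than any ChIP, and 15.2% of Chd7 replicate 1 peaks, 32.8% of Chd7 replicate 2 peaks and 40.3% of Chd8 peaks touched a peak of the input that the labels pair with them. An input peak is a stretch where sonicated chromatin itself gave more fragments than its surroundings, so input contact is given beside the main sites below. The peak lists carry no read counts, and the depth of each library is unknown. Chd8 has 1 library, so no Chd8 value has a replicate error, and nothing in the labels says whether the Chd7 replicates came from separate animals. The share of cells bound at a site cannot be told apart from the strength of binding in each cell. Cell type markers, chosen with earlier results of these data known, were also read. Chd8 lay at an end of 7 of 8 oligodendrocyte lineage markers (all but Cspg4), beside 41.0% of all genes. It had 2 of 6 astrocyte, 2 of 6 neuron, 1 of 6 microglia and 0 of 6 endothelial markers. Input 3 had a peak at an end of 6 of 8 lineage, 3 of 6 astrocyte, 5 of 6 neuron, 1 of 6 microglia and 3 of 6 endothelial markers. That is beside 45.2% of all genes. A peak at a gene is no measure of its expression, so these counts are no check of the cell type.

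Chd8 lay at an end of 19 of the 32 members, or 59.4% (95% exact interval 40.6% to 76.3%, which covers counting error over genes only), against 41.0% of all protein-coding genes. Chd7 replicate 2 had 11 members, 34.4% (18.6% to 53.2%), against 17.0% of all genes. Chd7 replicate 1 had 4, 12.5% (3.51% to 29.0%), against 10.4% of all genes. A reproducible Chd7 region, where peaks of both replicates overlapped by at least 1 bp, lay at an end of 1 member, 3.12% (0.0791% to 16.2%), against 4.83% of all genes. Of the members at gene ends the 2 Chd7 lists shared Bcl2l11 alone, and the reproducible share was near the background of all genes. The members were chosen by name with earlier results of these data known. Whether the all-gene share lies inside an interval is therefore no test, and none was made.

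The controls were read the same way. Neither mock had a peak at an end of a member, against 0.0183% of all genes for mock 1 and 0.0137% for mock 2, and 0 of 32 allows a share of up to 10.9%. Input 1 had a peak at an end of 14 members (43.8%, against 21.9% of all genes), input 2 of 15 (46.9%, against 28.4%) and input 3 of 22 (68.8%, against 45.2%). The members were thus more often covered than all genes in each of the 3 inputs as well as in Chd8 and in Chd7 replicate 2. Of the 19 members with Chd8 at an end, 18 (94.7%) also had an input 3 peak at an end, against 73.1% of all genes with Chd8 at an end. Without the ChIP peaks that touched any input, Chd8 lay at an end of 3 members (9.38%, against 13.1% of all genes), Chd7 replicate 1 of 2 (6.25%, against 3.15%) and Chd7 replicate 2 of 0 (against 3.19%). At gene ends the higher share of members for Chd8 and for Chd7 replicate 2 was thus not seen among peaks free of any input. At the locus (body and 10 kb on both sides), such peaks of Chd8 had 37.5% of members, against 29.7% of all genes. Those of Chd7 replicate 2 had 12.5%, against 9.48%. With only peaks touching its paired input removed, Chd7 replicate 2 had 18.8% of members at ends, against 9.67%, and 40.6% at the locus, against 19.4%.

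**Figure D1:**
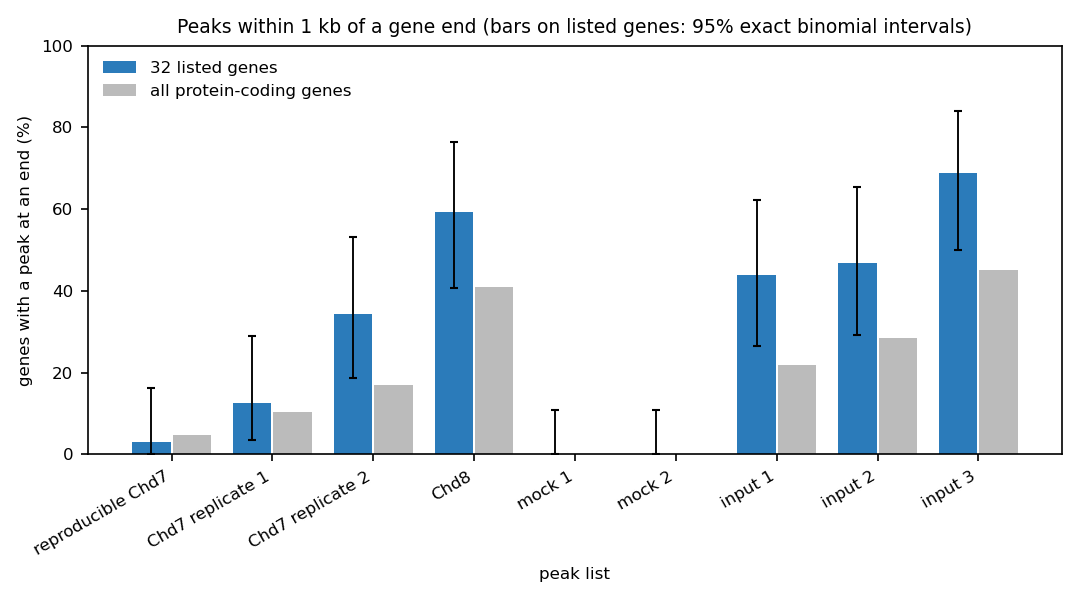
Percent of genes with a peak at a gene end in each library, for the 32 members (left of each pair, with 95% exact binomial intervals) and for all 21883 protein-coding genes (right of each pair). Chd8 covered 59.4% of members against 41.0% of all genes, and input 3 covered 68.8% of members against 45.2% of all genes.

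Chd7 peaks at members' ends lay at genes that also had Chd8. Either Chd7 list had a peak at an end of 14 members (43.8%, against 21.9% of all genes), and 14 of those 14 also had Chd8 there, where 91.0% of all genes with Chd7 at an end did. Seen from Chd8, 14 of its 19 members (73.7%) had Chd7 in either list, against 48.8% of all genes with Chd8 at an end. Chd8 and Chd7 replicate 2 share a mock, so these counts are given as a description. The 5 members with Chd8 and no Chd7 at an end were Bcl2, Phlda3, Casp9, Btg2 and Bak1.

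Gene boundaries miss promoters inside a gene, so start sites were also read where the RefSeq promoter table lists them, for 27 of the 32 members. Pmaip1, Perp, Trp53inp1, Zmat3 and Tnfrsf10b were not matched. Within 1 kb of a start site, Chd8 had 20 of 27 members (74.1%, against 43.6% of 17491 genes), Chd7 replicate 2 had 11 (40.7%, against 18.0%), Chd7 replicate 1 had 6 (22.2%, against 11.1%) and reproducible Chd7 had 1 (3.70%, against 5.23%). Start sites added Mdm4, Bcl2l1, Mcl1 and Xiap to the Chd8 genes. The inputs had 14 (51.9%, against 20.3%), 12 (44.4%, against 25.1%) and 21 (77.8%, against 43.5%) of the 27.

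At the locus, meaning the body and 10 kb on both sides, Chd8 had a peak at 24 members (75.0%, against 56.9% of all genes), Chd7 replicate 2 at 17 (53.1%, against 29.1%) and Chd7 replicate 1 at 10 (31.2%, against 21.4%). Reproducible Chd7 regions lay at 3 loci, Bbc3, Casp9 and Bcl2l11 (9.38%, against 8.45%). Inputs 1, 2 and 3 had a peak at 27 (84.4%, against 70.0%), 30 (93.8%, against 81.9%) and 31 (96.9%, against 77.9%) of the 32 loci. The members had a median length of 17.3 kb, against 17.2 kb for all genes. In all, 25 loci had a ChIP peak of some kind. The other 7, Pmaip1, Perp, Fas, Eda2r, Ei24, Bid and Tnfrsf10b, had none. The share of all genes with any ChIP peak at the locus was not counted, and Chd8 by itself had 56.9%. The 25 and the 7 are thus given without a background.

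Some of the peaks were at ends shared with a neighbour. Counting only peaks at the end of no other gene left Chd8 at 15 members (against 29.4% of all genes), Chd7 replicate 2 at 9 (against 11.5%), Chd7 replicate 1 at 0 (against 6.84%) and reproducible Chd7 at 0 (against 3.05%). All 4 members of Chd7 replicate 1 had shared ends, with Wrap53 at Trp53, Ikbip at Apaf1, Rplp2 at Pidd1 and Acoxl at Bcl2l11.

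**Figure D2:**
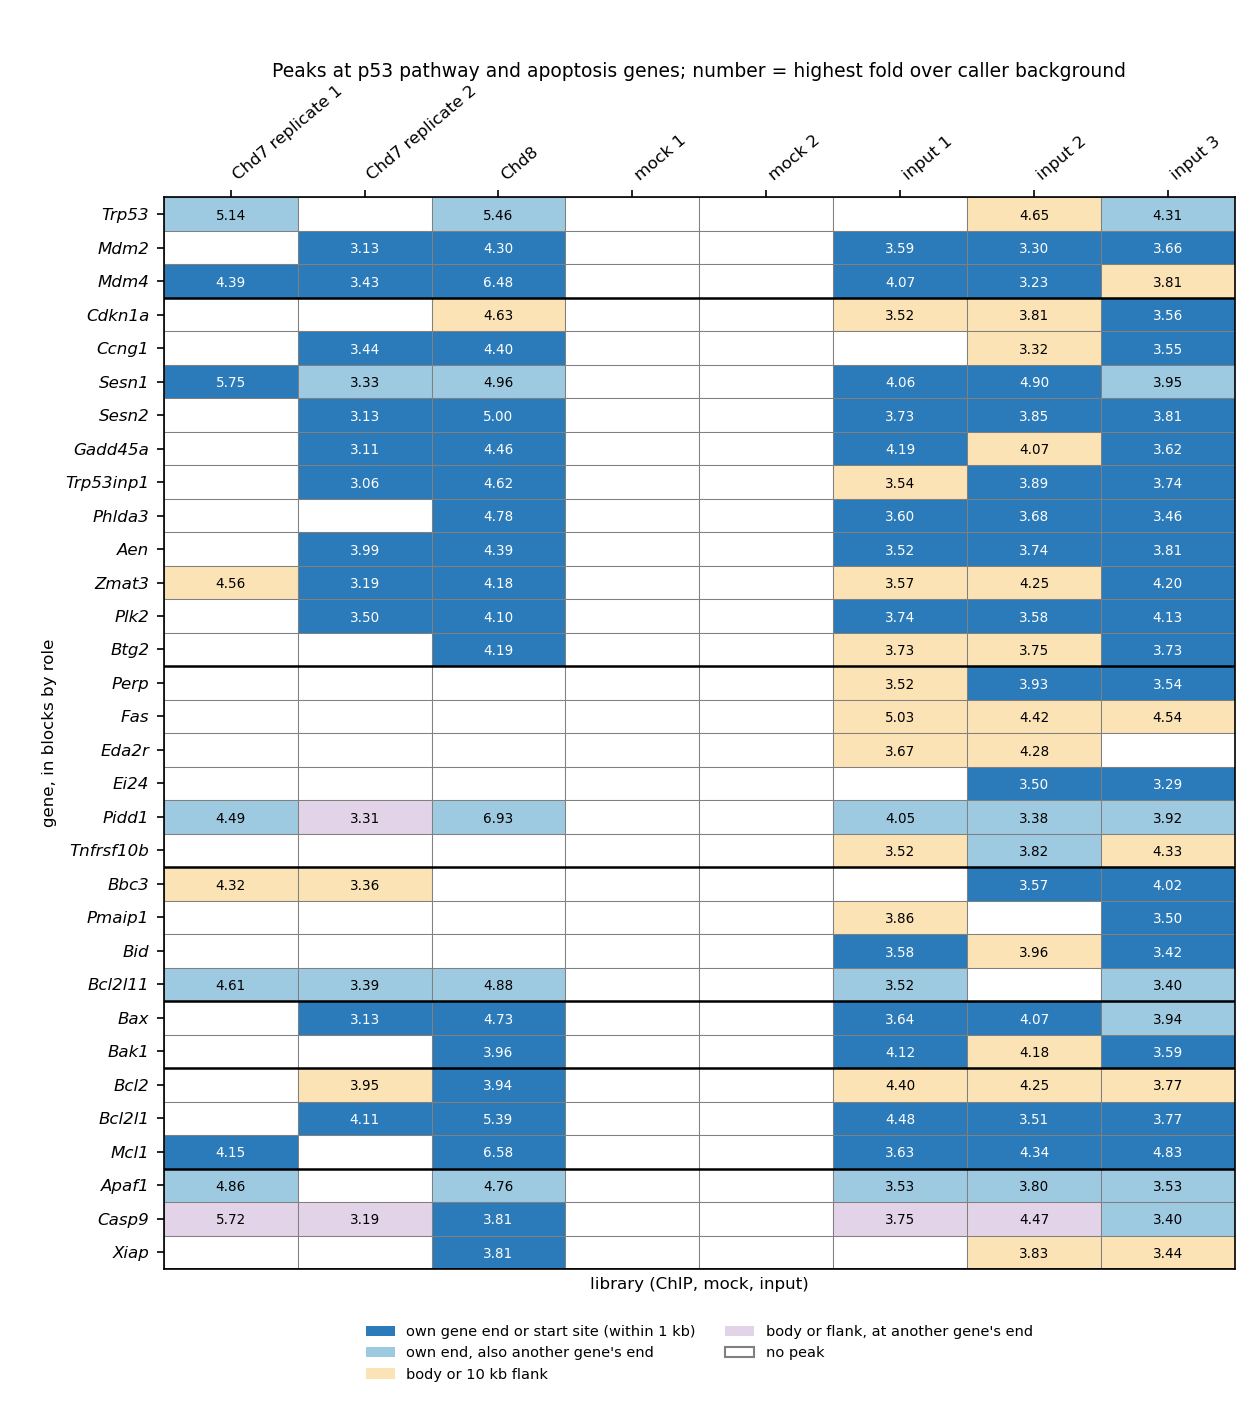
Highest peak fold at a gene end or start site (blue), or elsewhere at the locus where neither holds a peak (yellow or mauve), for each of the 32 members (rows, grouped by role) in each library (columns, ChIPs left of mocks and inputs). Chd8 has a blue cell in 10 of the 11 rows of arrest and stress response targets. Among the 6 death receptors and other death mediators Pidd1 alone has one. Chd8 lay at an end of 41.0% of all genes. By ends alone, input 3 had a peak at 10 of those 11 members and 3 of those 6, beside 45.2% of all genes. It also had a peak at a start site of Cdkn1a, the remaining arrest row. The arrest block includes Aen and Trp53inp1, whose roles also include cell death.

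The fold and −log10 q given for each peak are the authors' own values from their peak caller, the ratio of ChIP signal to background as MACS reports it, and they are compared only within a library. Peaks at members' ends were close in height to those at all genes. Their median fold was 4.40 in Chd8, against 4.69 over all its peaks at gene ends. In Chd7 replicate 1 the members' median was 4.60 against 4.54, and in Chd7 replicate 2 it was 3.16 against 3.37. Chd8 peaks at members' ends had a median width of 687 bp, against 481 bp over all gene-end peaks. For Chd7 replicate 1 the widths were 230 bp against 240 bp, and for Chd7 replicate 2 they were 310 bp against 366 bp.

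Trp53 itself was covered by Chd8 and by Chd7 replicate 1. Its start site is at position 69580359 of chromosome 11 (plus strand), within 1 kb of the starts of Wrap53, a gene on the other strand whose product brings telomerase RNA to Cajal bodies. Chd7 replicate 1 had a peak before the start at chr11:69579362-69579568 (fold 5.14, touching input 3) and another after it at chr11:69580939-69581729 (fold 4.59, touching no input). Chd8 covered both, at chr11:69578959-69579689 (fold 4.25) and chr11:69580169-69581894 (fold 5.46), each touching input 3, and the second spanned the start site. Another Chd8 peak lay at the far end of Trp53, at chr11:69592393-69592699 (fold 5.03), and touched no input, and a peak of fold 4.12 lay downstream at the end of Atp1b2. Chd7 replicate 2 had no peak at the locus, so the Trp53 sites of Chd7 were seen in 1 of 2 libraries, and which of the 2 genes the promoter peaks belong to cannot be told apart.

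The inhibitors of p53 differed in where the remodelers sat. Mdm2, the ubiquitin ligase that sends p53 to the proteasome and is itself a p53 target, had Chd8 over its start site (fold 4.30, touching all 3 inputs) and Chd7 in replicate 2 (fold 3.13). Mdm4, which binds and blocks p53 without being an efficient ligase, had no ChIP peak at its first start. Its internal start at position 133025416 of chromosome 1 (minus strand) was 5171 bp inside the gene and held a Chd8 peak of fold 6.48 at chr1:133025067-133025780, with a −log10 q of 6.22, which ranked 1052 among the 18350 Chd8 peaks left after removal of those touching a mock. Chd7 replicate 1 (chr1:133025082-133025338, fold 4.39) and Chd7 replicate 2 (chr1:133025359-133025657, fold 3.43) both lay inside that Chd8 peak, with 20 bases between them. Under the overlap rule Mdm4 is thus not counted as reproducible, and input 1 touched all 3 peaks.

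The arrest and stress response targets had Chd8 at the ends of 10 of 11 members, beside 41.0% of all genes. The group includes Aen and Trp53inp1, whose roles also include cell death. Input 3 also had a peak at the ends of 10 of these 11, beside 45.2% of all genes. Chd7 replicate 2 covered 8 of the 11 at an end (Ccng1, Sesn1, Sesn2, Gadd45a, Trp53inp1, Aen, Zmat3 and Plk2), and Chd7 replicate 1 covered 0, beside 17.0% and 10.4% of all genes. Members of the group that all Chd7 peaks missed at ends and start sites were Cdkn1a, Phlda3 and Btg2.

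Cdkn1a (p21), the cyclin-dependent kinase inhibitor through which p53 halts the cell cycle, was the exception in its group. It had no Chd7 peak at the locus and no Chd8 peak at an end. A single Chd8 peak at chr17:29095526-29095690 (fold 4.63) lay in the body, 1757 bp past the second listed start at 29093769, and touched no input.

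The sestrins, which lower TORC1 signalling and oxidative stress, carried several peaks each. At the first start of Sesn1, Chd8 had a peak of 1862 bp, the widest at a member's end (fold 4.96), and Chd7 replicate 2 had 3.33, where the neighbour Cep57l1 also starts and all 3 inputs touch. At the internal start at position 41887439 of chromosome 10, Chd7 replicate 1 had a fold of 5.75 at chr10:41887261-41887676, which ranked 324 among its 5218 peaks, and Chd8 had 4.15. Inputs 1 and 2 touched both peaks there. The Chd7 replicates were thus at different start sites of Sesn1, and a further Chd7 replicate 2 peak (3.80) lay past the gene and touched no input. Sesn2 had Chd8 (fold 5.00) and 2 Chd7 replicate 2 peaks (3.11 and 3.13) at its start, all touching at least input 3, and a further Chd8 peak (4.21) upstream that touched no input.

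In 5 further members of the group with both remodelers, the Chd8 folds at the ends were below the median of 4.69 over all Chd8 peaks at gene ends. Gadd45a, a stress sensor that acts in DNA repair and p38 signalling, had Chd8 at 4.46 and 3.86 and Chd7 replicate 2 at 3.11. Ccng1 (cyclin G1, a partner of the PP2A phosphatase) had 4.40 in Chd8 and 3.44 in Chd7 replicate 2. Plk2, a polo-like kinase, had 4.10 in Chd8 and 3.50 in Chd7 replicate 2. Aen, an apoptosis-enhancing nuclease, had 4.39 in Chd8 and 3.99 in Chd7 replicate 2. Trp53inp1, a cofactor that favours death-promoting p53 and autophagy, had 4.62 in Chd8 and 3.06 in Chd7 replicate 2. In each of these the Chd7 replicate 2 peak overlapped a Chd8 peak and touched at least 1 input.

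Zmat3, a p53-induced RNA-binding protein that controls splicing, held an overlap of Chd7 with Chd8 in which neither peak touched an input. The other such overlap at a locus was near Pidd1, at the ends of Cend1 and Slc25a22, with Chd8 at 3.81 and Chd7 replicate 2 at 3.31. In the body of Zmat3, Chd7 replicate 1 had a peak at chr3:32343514-32343725 (fold 4.56) and Chd8 one at chr3:32343390-32343647 (fold 5.51). Chd7 replicate 2 had no peak there, and its peak at the end of the gene (fold 3.19) lay 21845 bases away, beside Chd8 at 4.18, with input 3 touching both. Phlda3, a repressor of Akt signalling, had Chd8 alone (fold 4.78, all inputs touching). Btg2, an antiproliferative protein that recruits deadenylases, had Chd8 at its start (4.19, touching input 3) and in its body (3.83, touching none).

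Among the BH3-only genes, Bcl2l11 was the site where both Chd7 replicates and Chd8 met. Bcl2l11 (BIM) is the BH3-only protein that binds all pro-survival BCL-2 relatives and that FOXO factors induce on growth factor withdrawal. Chd7 replicate 1 had peaks at chr2:128125692-128125912 (fold 4.61) and chr2:128126238-128126371 (fold 4.15, the lowest value in that list). Chd7 replicate 2 covered both with 1 peak at chr2:128125654-128126670 (fold 3.39), and Chd8 lay at chr2:128125674-128126955 (fold 4.88). Input 3 touched the broad peaks and the first narrow one, whereas the second narrow peak touched no input. The boundary of Acoxl lies within 1 kb, and the start site of Bcl2l11 at 128126038 is inside the Chd7 replicate 2 and Chd8 peaks.

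Bbc3 (PUMA), a strong p53-induced killer, was the 1 of 20 members with Chd7 in either list at the locus that had no Chd8 there. The same share over all genes was not counted. The 2 Chd7 peaks overlapped by 97 bp at chr7:16299683-16300021, 8.38 kb outside the gene, with folds of 4.32 in replicate 1 and 3.36 in replicate 2. Input 2 touched both, and the nearest Chd8 peak was 13.1 kb from the gene. Of the 1383 reproducible Chd7 regions in these libraries, 40 had no Chd8 peak, which is a count over regions and not over loci. Pmaip1 (NOXA) and Bid, the BH3-only protein that caspase-8 cleaves, had no ChIP peak at their loci.

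**Figure D3:**
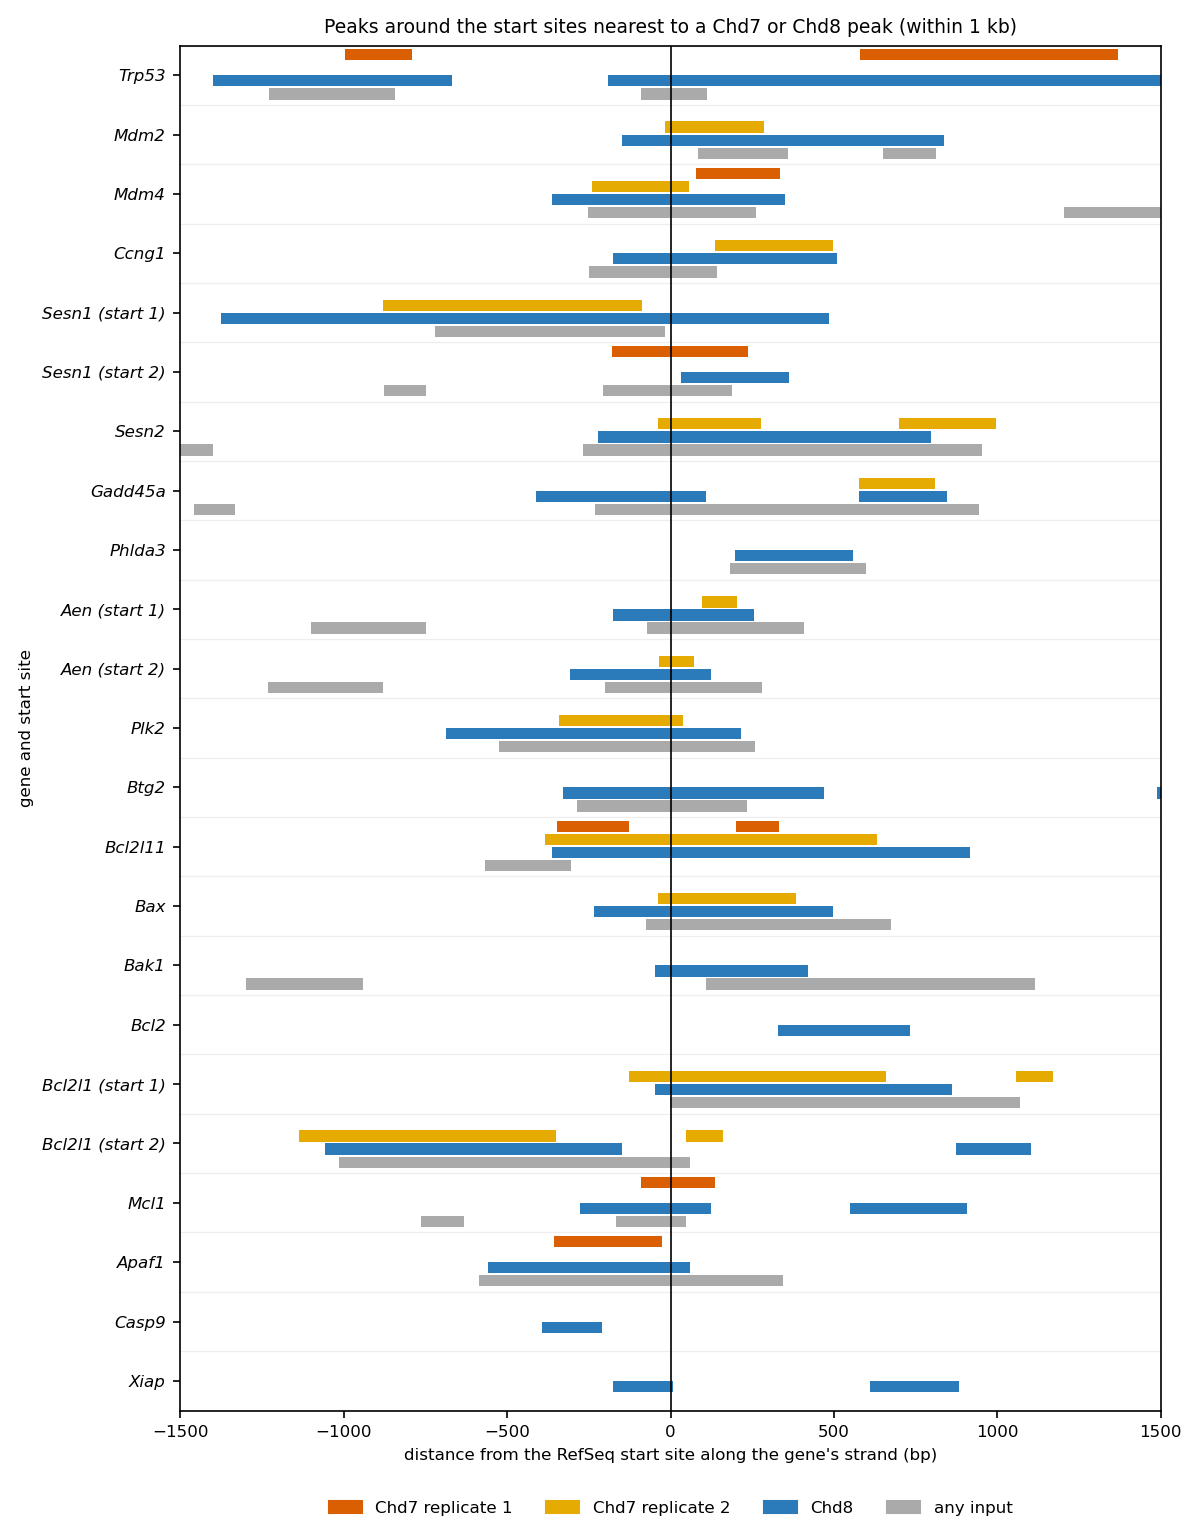
Positions of ChIP peaks around the start sites of the promoter table, as distance in bp from each start site, for the 23 start sites, in 20 members, that are the nearest to a ChIP peak within 1 kb. The 2 Chd7 peaks of Mdm4 lie side by side within 1 Chd8 peak, and those of Bcl2l11 overlap each other and 1 Chd8 peak.

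Both pore formers had Chd8 at their starts. Bax had 4.73 in Chd8 and 3.13 in Chd7 replicate 2, over sites that all 3 inputs touched, and Bak1 had 3.96 in Chd8 with input 3 touching and a start of Ggnbp1 nearby. A second pair near Bax, with Chd8 at 4.07 and Chd7 replicate 2 at 3.32, lay at the end of Ftl1, the ferritin light chain gene, and is counted apart.

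Of the anti-apoptotic genes, Mcl1 and Bcl2l1 carried their peaks at internal starts. Mcl1, a short-lived survival protein, had Chd8 at 6.58 (chr3:95658443-95658846, rank 959 of its list) over the start at 95658721, which is 1777 bp from the nearest table boundary, and Chd7 replicate 1 at 4.15, the lowest value in that list. Input 1 touched both. 2 further Chd8 peaks of 3.81, within and past Mcl1, touched no input. Bcl2l1 had Chd8 at 5.39 and Chd7 replicate 2 at 4.11, the highest replicate 2 fold at a member's start site, where all inputs touched. Smaller peaks of Bcl2l1 were at 3.85 in Chd8, at 3.11 in Chd7 replicate 2 and, at the end of Cox4i2 in its body span, at 3.16 in Chd7 replicate 2. Bcl2 had Chd8 at 3.94 at its end with no input touching, and Chd7 replicate 2 at 3.95 in the body.

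In the apoptosome group the highest folds were at shared or neighbouring starts. Apaf1, the cytochrome c sensor, had Chd8 at 4.76 and Chd7 replicate 1 at 4.86 at a start shared with Ikbip, with inputs 1 and 3 touching. At the locus of Casp9, the caspase that the apoptosome activates, Chd8 reached 8.77 (−log10 q 10.4, rank 173) with Chd7 replicate 1 at 5.72 and Chd7 replicate 2 at 3.19. Those peaks lay at the end of Dnajc16, 2.57 kb or more before the Casp9 start, and the Chd8 peak touched all 3 inputs. The Casp9 start itself had Chd8 at 3.81, the lowest fold of the Chd8 list, and no Chd7. Xiap, an inhibitor of caspases, had 2 Chd8 peaks at that same fold of 3.81 near its starts, and neither touched an input.

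Of the death receptors and other death mediators, 1 of 6 had Chd8 at an end, beside 41.0% of all genes. Fas, Tnfrsf10b (the mouse TRAIL receptor) and Eda2r, all of the TNF receptor family, had no ChIP peak at the locus, nor did Perp, a desmosome-associated p53 effector, or Ei24, a p53-induced protein of the endoplasmic reticulum. Pidd1, the scaffold of the PIDDosome that activates caspase-2, had Chd8 at 6.93 (−log10 q 6.95) and Chd7 replicate 1 at 4.49, but at the boundary it shares with the ribosomal protein gene Rplp2 and, at its nearest base, at -3272 bp from the start site listed for Pidd1. All 3 inputs touched the Chd8 peak, and inputs 1 and 3 touched the Chd7 peak. A Chd8 peak at its far end (4.15) lay at the end of Slc25a22, and another upstream (4.06) lay at that of Pnpla2. Input peaks were present in this group: inputs 2 and 3 had peaks at the ends of 4 and 3 of the 6 members, beside 28.4% and 45.2% of all genes.

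Most peaks at members touched an input. At ends or start sites, 15 of 15 Chd7 replicate 2 peaks at 13 members touched an input, as did 7 of 9 Chd7 replicate 1 peaks at 7 members and 24 of 31 Chd8 peaks at 23 members. Shares over all genes were counted for peaks at gene ends only, so members' peaks at ends are set against them. Any input was touched by 100% of members' end peaks in Chd7 replicate 2, against 81.0% over all genes. In Chd7 replicate 1 it was 66.7% against 69.5%, and in Chd8 87.0% against 68.4%. The 7 Chd8 peaks that touched none, at Bcl2, Bcl2l1, Casp9, Mcl1, Trp53 and Xiap, had a median fold of 3.81, whereas the 24 that touched an input had a median of 4.54. At gene ends alone, 82.6% of members' Chd8 peaks touched input 3, the input paired by the labels, against 59.4% of all gene-end Chd8 peaks. For Chd7 replicate 2 and input 2 it was 6 of 12 peaks, against 42.9%, and for Chd7 replicate 1 and input 1 it was 33.3%, against 27.8%. The 3 members with a Chd8 peak at an end free of any input were Trp53, Bcl2 and Casp9, and the 2 with such a Chd7 replicate 1 peak were Trp53 and Bcl2l11.

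**Figure D4:**
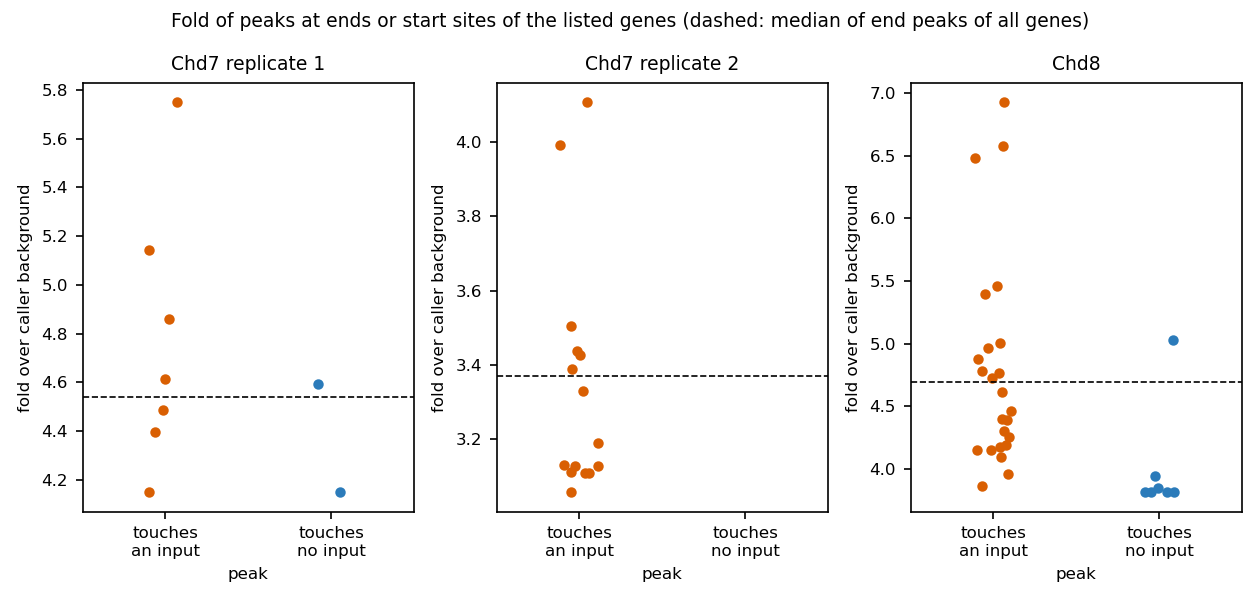
Fold of each ChIP peak at a member's end or start site (vertical axis) by library and by whether the peak touched an input peak. All 15 Chd7 replicate 2 peaks touched an input, and the 7 Chd8 peaks that touched none have a median of 3.81, against 4.54 for the 24 that touched one.

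Genes of the same pathways outside the 32 were counted beside them, to be read against 41.0% of all genes with Chd8 at an end, 10.4% with Chd7 replicate 1, 17.0% with Chd7 replicate 2 and 45.2% with input 3. Reproducible Chd7 lay at an end of 4.83% of all genes. In the 3 lists, in the order given here, it had 4.0%, 7.41% and 12.5% of the genes. Of 25 regulators and partners of p53, 19 (76.0%) had Chd8 at an end, 5 had Chd7 replicate 1, 5 had Chd7 replicate 2 and 16 (64.0%) had input 3. The highest Chd8 folds were at Rpl5 (7.54), Atr (6.74), Rpl11 (6.51), Atm (6.03) and Ep300 (5.88). Atm and Atr are the kinases that signal DNA damage to p53, Rpl5 and Rpl11 are ribosomal proteins that bind Mdm2, and Ep300 acetylates p53. Trp53bp2 (ASPP2), which steers p53 to death genes, was the 1 gene of this list with reproducible Chd7, at 4.17 in replicate 1 and 3.22 in replicate 2 with Chd8 at 4.65.

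Of 27 other p53 targets, 20 (74.1%) had Chd8 at an end, 3 (11.1%) had Chd7 replicate 1, 6 (22.2%) had Chd7 replicate 2 and 16 (59.3%) had input 3. Xpc, a DNA damage sensor, had Chd8 at 5.65, and Foxo3, a stress-responsive forkhead factor, had Chd8 at 5.31. Reproducible Chd7 lay at Polk, a translesion polymerase (4.38 and 3.47, with Chd8 at 4.72), and at Ddit4, an inhibitor of TORC1 (4.61 and 3.37, with Chd8 at 5.12). Cdip1, a p53-induced promoter of death, had Chd8 at 5.09.

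Of 32 other genes of the apoptosis machinery, 19 (59.4%) had Chd8 at an end, 8 (25.0%) had Chd7 replicate 1, 10 (31.2%) had Chd7 replicate 2 and 21 (65.6%) had input 3. The highest Chd8 folds were at Cradd (11.7), the adaptor that links Pidd1 to caspase-2, Htra2 (9.82), a mitochondrial protease that antagonises Xiap, Dffb (6.97), the nuclease that cuts DNA in dying cells, Birc6 (6.66) and Cflar (6.11), the inhibitor of caspase-8. Reproducible Chd7 (replicate 1 and replicate 2 folds) lay at Htra2 (4.54 and 3.51), Birc2 (4.59 and 4.70, with Chd8 at 5.63), Birc6 (5.49 and 5.00) and the death receptor kinase Ripk1 (4.33 and 3.25, with no Chd8 at an end). The 3 lists were chosen with earlier results known, and neither mock had a peak at an end of any gene in them.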

How the data were processed

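ChIP-seq peak lists of 8 libraries were analysed, grouped by their titles. Antibodies are those given per sample. The extraction notes name the O4 antibody for the complexes instead, and this difference is unresolved. Alignment and peak calling used Bowtie2, SAMtools, Picard and MACS on mm10, per the submitters' processing notes. Their versions and settings, and the control behind each list, remain not given in the sources used here. Each list is a deposited broadPeak file, and the authors' caller wrote a score, a fold (ratio), a −log10 p and a −log10 q for each peak. By the labels, inputs 1, 2 and 3 pair with Chd7 replicate 1, Chd7 replicate 2 and Chd8, whereas track names in the files would exchange inputs 2 and 3.

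ChIP peaks touching a mock peak by at least 1 bp were removed, leaving 5218, 6237 and 18350. Reproducible Chd7 regions are merged spans of overlapping peaks of both replicates. Gene boundaries on chromosomes 1 to 19, X and Y came from a RefSeq table of GRCm38.p6 without strand, and start sites from its promoter table. No test was made over the members, since they are not replicates and the lists hold no counts: counts stand beside the share of all genes, and those at gene ends have 95% Clopper-Pearson intervals for the ChIP lists. Overlap code was tested on simulated data. Python 3.11.15, pandas 2.3.3, numpy 2.4.6 and scipy 1.17.1 were used.

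The members, the 3 further lists and the markers were chosen with earlier results of these data known. Given with values were members with a ChIP peak at their own end or a Chd7 peak at their locus, and in each further list the genes with reproducible Chd7 and the 5 highest in Chd8, of which 1 is not reported here. Cdkn1a and Xiap are given as well, chosen after their values were seen. The alternatives were stricter q and fold, removal of peaks touching inputs or a neighbour's end, other windows and overlaps, and leaving out a Chd7 replicate.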

Additional observations from a re-analysis of the deposited data

How the results depend on the processing

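Of 90 recounts under other settings, 40 stayed within 1.5 times the reported count and 50 did not. Counts are of the 32 members, with the share of all genes under the same setting in brackets. With a −log10 q of at least 5, Chd8 lay at an end of 1 member (8.28%) and at 4 loci (13.2%), and both Chd7 lists and reproducible Chd7 at 0. With a fold of at least 5, Chd8 had 3 at ends (17.8%) and 8 at loci (28.0%), Chd7 replicate 1 had 1 (1.98%) and 3 (5.65%), and Chd7 replicate 2 and reproducible Chd7 had 0. Without peaks touching any input, Chd8 had 3 at ends (13.1%) and 12 at loci (29.7%), Chd7 replicate 1 had 2 (3.15%) and 3 (10.9%), Chd7 replicate 2 had 0 (3.19%) and 4 (9.48%), and reproducible Chd7 had 0. Without peaks touching the matching input, Chd8 had 4 at ends (16.7%) and 13 at loci (34.0%), and Chd7 replicate 1 had 2 (7.51%) and 4 (17.3%). Under that setting Chd7 replicate 2 had 6 at ends (9.67%) and 13 at loci (19.4%), and reproducible Chd7 had 1 at loci (3.70%). With inputs 2 and 3 exchanged, Chd8 had 11 at ends (29.1%), Chd7 replicate 1 had 2 and 4 again, Chd7 replicate 2 had 1 at ends (4.72%) and 7 at loci (12.2%), and reproducible Chd7 had 0 and 1. For Chd8 at ends, the share of members was thus 3.12% with the stricter q, 9.38% with the stricter fold or without any-input peaks, and 12.5% without matching-input peaks, each below that of all genes, and it was 34.4% with the inputs exchanged. Without peaks at another gene's end, Chd7 replicate 1 had 0 at ends (6.84%) and 5 at loci (15.1%), and reproducible Chd7 had 0 and 1. Reproducible Chd7 had 2 members within 5 kb of an end (6.22%), 0 and 1 with a reciprocal overlap of 50%, and 1 in gene bodies alone (5.82%). Counting loci where each Chd7 list has a peak, overlapping or not, a setting chosen after seeing the data, gave 7 (12.6%). Resting on 1 Chd7 library alone, the reproducible count ran from 4 (without replicate 2) to 11 (without replicate 1) at ends, and from 10 (without replicate 2) to 17 (without replicate 1) at loci. No paired analysis was possible because the results are counts from peak lists with no test, and Chd8 has 1 library. Depth is unknown, so an absent peak shows only that none was listed.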

Other observations

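Distance to the nearest site depends on the length of each list, 1383 reproducible Chd7 regions and 18350 Chd8 peaks, so it is given beside all genes for each. The nearest reproducible Chd7 region lay a median of 153 kb from the 32 members, against 389 kb from all protein-coding genes, and the nearest Chd8 peak lay at 0 kb from the median member, against 1.29 kb. Cdkn1a, the arrest gene, was 1510 kb from the nearest reproducible Chd7 region although Chd8 lay in its body.

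The members' promoters were rich in CG pairs. In the 300 bases of the promoter table, 38 member promoters had a median of 21.5 CG pairs, against 13.0 over 21262 promoters. Member promoters with Chd8 within 1 kb had a median of 23 (n = 25), and those without had 17 (n = 13), whereas over all promoters the medians were 22 with Chd8 and 5 without. The share of all promoters with Chd8 was 4.14% at 0 to 4 CG pairs and 70.3% at 20 or more, and for input 3 the shares were 7.37% and 68.5%. Of the members' promoters, 0 of 4 in the lowest class and 17 of 23 in the highest had Chd8. The GC box GGGCGG, on either strand, was in 27 of 38 member promoters (71.1%), against 46.2% of all promoters. The p53 half-site, by its usual consensus, was in 10 (26.3%), against 7.37%, with 2 matches at the first start of Cdkn1a and 1 at that of Trp53. The 38 windows belong to 27 members and some overlap: the 2 Aen windows among the 10 hold the same match. Many members were listed because they are p53 targets, so the higher share is no independent result. Why it was higher was not tested. The CCAAT box was in 14 (36.8%), against 38.2%, TATAAA in 3 (7.89%), against 12.6%, CACGTG in 6 (15.8%), against 7.84%, and the ETS site CCGGAAGT in 1 (2.63%), against 5.15%. These are matches of letters in a window, not measured binding.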
